A study of Phoxinus septimaniae with 18 samples.

Results

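Assembled genes whose transcripts carry up to 7 predicted transmembrane segments were described in 3 tissues (brain, gills, liver) of Phoxinus septimaniae x P. dragarum, an invasive hybrid minnow, sampled in a river that receives potash mine water. The tag counting segments is part of each transcript identifier, and a gene belonged to the set when the highest tag over all of its transcripts was exactly 7. Of 36271 assembled genes, 283 met that condition, none (0) was dropped for a first hit from one of the excluded source codes, and the 250 with the highest mean in any tissue, in CPM (counts scaled to a common library total), were kept. The members were thus chosen by their tissue mean CPM, and their levels are given as a description without a test. The difference between stations took no part in the choice.

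Fish came from a salt station beside the mine, at 18.1 ppt, or from an upstream reference station of lower salinity, and each tissue had 3 libraries from the salt station and 3 from the reference station, 18 libraries in all. The titles call the libraries biological replicates. Both groups were river fish of the same hybrid, and the labels used here state neither age nor sex. Station and salinity coincide, so salinity cannot be told apart from anything else that differs between the stations.

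Proteins that cross the membrane 7 times include the G protein-coupled receptors, in which a ligand bound on the outer face changes the shape of the helix bundle and activates a heterotrimeric G protein inside the cell. In vertebrates these receptors detect neurotransmitters, peptide hormones, odorants, light and, for the calcium-sensing receptor, extracellular ions, and the brain is known for a large repertoire of them. Other membrane proteins also have 7 segments, and a signal peptide can be counted as a segment by a predictor, so the tag alone does not identify a receptor. The identifiers pair members with protein accessions but not with gene symbols, so members are named here by assembled gene and by accession, and whether each is a receptor was not tested. A list of 75 G protein signalling genes and a list of 49 cell type markers, both made of symbols, matched 0 identifiers, and for that reason the tissue labels were not checked against markers either.

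Zebrafish proteins (source code DANRE) were the main hit of 230 members, pufferfish proteins (FUGRU) of 15 and clawed frog proteins (XENTR) of 5. The 250 members had 249 distinct main hits, since TRINITY_DN14704_c0_g1 and TRINITY_DN14704_c0_g2 shared ENSDARP00000115090, and reads of that pair may have been split between them. The members comprised 805 transcripts, of which 498 carried the 7-segment tag, 149 a tag of 1 to 6 segments and 158 no segment tag. A median member had 3 transcripts, 71 members had 1, and TRINITY_DN15185_c0_g1 had the most, with 14. Because counts were summed over all transcripts of a gene, 30 members had over 50% of their counts on transcripts without the 7-segment tag. TRINITY_DN22765_c0_g1, for example, had 1.46% of its counts on 7-segment transcripts and TRINITY_DN10041_c1_g1 had 8.98%, against a median of 100% over the members. The sigP tag was carried by 720 of the 753 member transcripts with a hit (95.6%), against 86.0% of all transcripts with a hit. With or without a hit, it was on 90.2% of member transcripts and 55.4% of all transcripts. Whether a transcript with this tag encodes a signal peptide was not tested.

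Library totals were 23678725 to 28731252 counts in brain, 15200774 to 24222245 in gills and 22183499 to 39881549 in liver. In liver 1 protein hit, ENSDARP00000050237, took 40.9%, 42.6% and 33.2% of the salt libraries, against 28.9%, 0.000151% and 0.000164% of the reference libraries, so liver values divided by the total count fall in libraries where that hit is high. The hit was near 0 in reference 2 and 3 only, so any fish trait that goes with it is partly mixed with station. Scaling does not remove this, and brain libraries carry the same library codes. Whether other genes differ with the hit was not tested. In gills the library labelled salt 3 went against its label: over 111 transcripts of 37 members, its transcript shares correlated at -0.175 with the brain library and 0.0752 with the liver library of its own library code. With the brain, liver and gill libraries of reference 1 the same correlations were 0.652, 0.549 and 0.537. For the other libraries, pairs of the same code ranged from 0.257 to 0.724 (10 pairs) and pairs of different codes from -0.594 to 0.491 (86 pairs). The 0.491 was gill reference 2 with brain salt 1, and gill reference 2 had 0.274 with liver salt 1. Other pairs of different codes also lay inside the same-code range, such as gill salt 2 with liver reference 2 at 0.342. Whether the label of gill reference 2 is right was not tested. Gill counts and fold changes between stations are also given without the library labelled salt 3, which does not settle the other gill labels. Of the gill reference libraries, 2 of 3 carry codes that end in A, where the codes of all other reference libraries end in C. What that letter marks is not stated in the labels, so whether those 2 libraries match the other reference samples was not tested. Brain and liver libraries carry the same 6 codes, so a difference seen in both tissues is not shown in independent sets of fish. Gill salt 1, gill reference 1 and the gill library labelled salt 3 also carry codes of brain libraries. A difference seen in both gills and brain is therefore not shown in fully independent sets of fish either.

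Brain listed 214 of the 250 members (85.6%), gills 186 (74.4%) and liver 118 (47.2%), against 76.11%, 67.93% and 41.07% of all assembled genes. Of the members listed, 5 in brain, 8 in gills and 11 in liver had no count on a 7-segment transcript in that tissue. The highest tissue mean lay in brain for 133 members (53.2%), in gills for 105 (42%) and in liver for 12 (4.8%), against 51.39%, 40.84% and 7.767% of all genes. All 3 tables listed 99 members, 2 tables listed 70 and 1 table listed 81, of which 58 were in brain only, 23 in gills only and 0 in liver only. A transcript that a table does not list is not measured at 0 there, because each table held only transcripts above a minimum level. Lower levels from fewer cells of a type and from less RNA per cell cannot be told apart in these tissue samples.

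Among the members highest in brain, 58 were listed there only, 26 more stood below 10% of their brain level in every other tissue that listed them, and 17 came within 2-fold of another tissue. For the members highest in gills these counts were 23, 13 and 26. For the 12 members highest in liver they were 0, 1 and 6. Of all 283 genes with 7 segments, 42.05% were listed in liver, close to the 41.07% of all assembled genes and the 38.87% of genes without a segment tag. Other classes of membrane genes were listed there more often: the share was 42.05% for 7 segments, against 56.41% of 156 genes with 6 segments, 55.87% of 281 with 4, 71.59% of 264 with 8 to 11 and 70.31% of 128 with 12 or more. The share with its highest level in liver was 4.594% of the 7-segment genes, against 7.692%, 7.473%, 14.39% and 17.97% of those classes in the same order and 7.767% of all assembled genes. The median highest tissue mean of the 7-segment genes was 16.16 CPM. Those classes had 24.58, 29.05, 43.02 and 54.05 CPM in the same order, and all assembled genes 4.963 CPM. CPM are not divided by transcript length, so these medians do not rank the classes by RNA level. Listing needs a minimum level, and how far the level sets the liver shares was not tested. These shares come from the levels that also defined the members and carry no test.

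**Figure D1:**
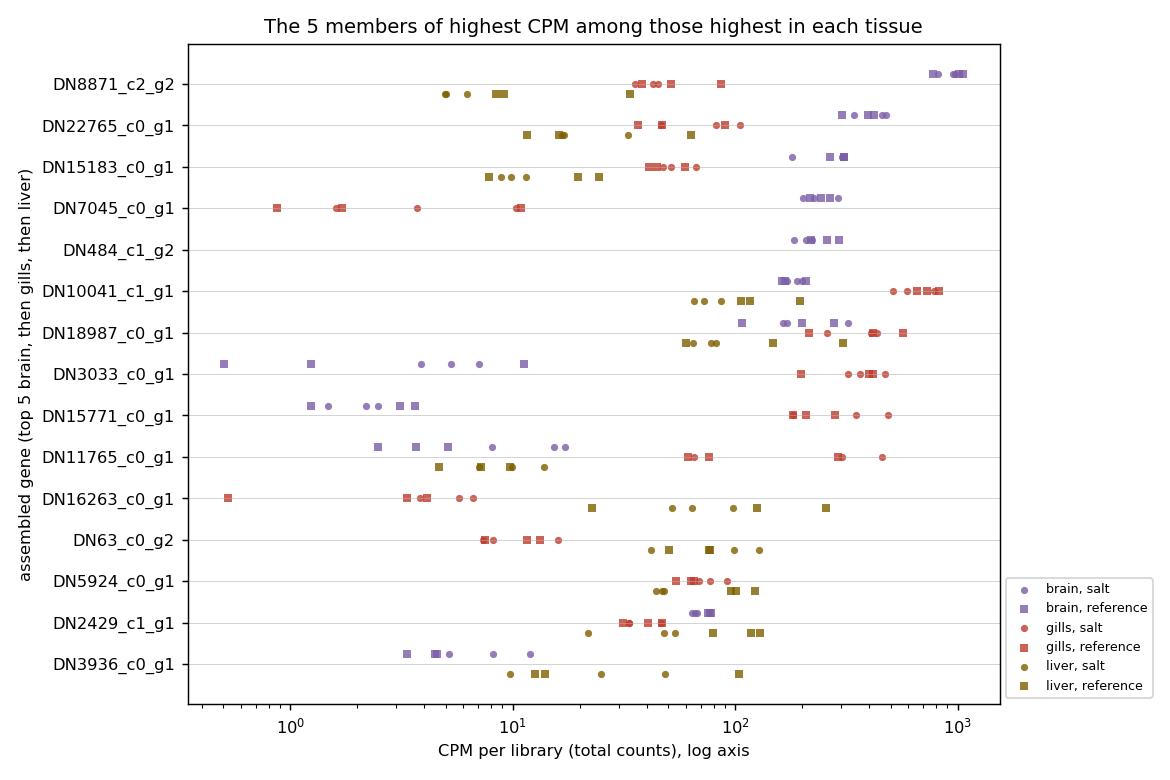
Level of the 5 members with the highest mean CPM among the members highest in each tissue. Points give the CPM of each library (log axis) per tissue in salt and reference libraries. Members highest in brain and in gills often had no liver points because the liver table did not list them, whereas TRINITY_DN2429_c1_g1 of the liver group averaged 74.9 CPM in liver and 71.4 CPM in brain.

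The tables of the 3 tissues were counted separately, so levels set across tissues rest on each library's own total. CPM values are not divided by transcript length, which is not given, so they do not rank genes against each other. For a gene across tissues they are limited too. The transcripts counted can differ between tissues, and liver CPM fall where the dominant liver hit is high. The member with the most brain counts was TRINITY_DN8871_c2_g2 (ENSDARP00000128513), at 978, 950 and 818 CPM in the salt brains and 1054, 777 and 1017 CPM in the reference brains. It averaged 933 ± 111 CPM in brain, 49.9 ± 18.8 CPM in gills and 11.2 ± 11.1 CPM in liver (SD, n = 6 each), with no overlap between any of the tissues. TRINITY_DN22765_c0_g1 (ENSDARP00000118404) averaged 400 ± 66.4 CPM in brain, 67.9 ± 28.1 CPM in gills and 26.4 ± 19.7 CPM in liver. TRINITY_DN15183_c0_g1 (ENSDARP00000003167) averaged 279 ± 50.8, 51.8 ± 9.66 and 13.7 ± 6.78 CPM in those tissues.

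A pair of the leading brain members was low or unlisted elsewhere. TRINITY_DN7045_c0_g1 (ENSDARP00000115659) had 289, 227 and 202 CPM in the salt brains and 243, 268 and 218 CPM in the reference brains. In gills it had 1.6, 3.72 and 10.4 CPM in the salt libraries, the last being the library labelled salt 3, and 10.9, 1.71 and 0.870 CPM in the reference libraries. Its brain libraries all lay above its gill libraries, and the liver table did not list it. TRINITY_DN484_c1_g2 (ENSDARP00000086356) was listed in brain only, at 185, 221 and 209 CPM in the salt libraries and 258, 221 and 293 CPM in the reference libraries.

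In gills the member with the most counts, TRINITY_DN10041_c1_g1 (NP_001006781.1, a clawed frog protein), had 782, 512 and 595 CPM in the salt libraries and 732, 827 and 655 CPM in the reference libraries. It averaged 684 ± 119 CPM in gills, 183 ± 18.2 CPM in brain and 107 ± 47.7 CPM in liver (SD, n = 6 each), and its gill range lay above both others. TRINITY_DN18987_c0_g1, with a pufferfish hit, averaged 384 ± 128 CPM in gills, 208 ± 79.7 CPM in brain and 123 ± 95.1 CPM in liver, with overlapping ranges.

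The other leading gill members were low or unlisted outside gills. TRINITY_DN3033_c0_g1 (ENSDARP00000127431) had 323, 363 and 471 CPM in the salt gills and 417, 399 and 197 CPM in the reference gills, and averaged 4.86 ± 3.96 CPM in brain (SD, n = 6). TRINITY_DN15771_c0_g1 (ENSDARP00000074800) had 350, 485 and 182 CPM in the salt gills and 209, 182 and 282 CPM in the reference gills, and averaged 2.35 ± 0.924 CPM in brain. Neither was listed in liver. TRINITY_DN11765_c0_g1 (ENSDARP00000071978) averaged 209 ± 166 CPM in gills, 8.65 ± 6.24 CPM in brain and 8.72 ± 3.17 CPM in liver, and its station values are given further on.

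Liver-leading members varied more from library to library. TRINITY_DN16263_c0_g1 (ENSDARP00000073770) had 97.8, 63.7 and 52.2 CPM in the salt livers and 126, 256 and 22.8 CPM in the reference livers, and averaged 4.03 ± 2.11 CPM in gills (SD, n = 6). None (0%) of its liver counts fell on its 7-segment transcript, which held 100% of its gill counts, so these levels belong to different transcripts. TRINITY_DN63_c0_g2 (ENSDARP00000110421) averaged 78.7 ± 31.4 CPM in liver and 10.7 ± 3.56 CPM in gills. Every liver library of these members lay above every gill library. TRINITY_DN5924_c0_g1 (ENSDARP00000108129), at 76.6 ± 34.4 CPM in liver and 70.2 ± 13.2 CPM in gills, had overlapping ranges. TRINITY_DN3936_c0_g1 (ENSDARP00000035603) averaged 35.6 ± 36.3 CPM in liver, where reference 2 alone reached 104 CPM, and 6.27 ± 3.22 CPM in brain.

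The 3 most even of the 99 members in all 3 tables are given next. TRINITY_DN3438_c2_g3 (ENSDARP00000104880) differed least between tissue means, with a ratio of 1.25 from the highest mean to the lowest. It had 23.5, 24.2 and 26.8 CPM in the salt brains and 24.6, 19.9 and 23.7 CPM in the reference brains, and its gill and liver ranges overlapped these. TRINITY_DN1434_c0_g1 (ENSDARP00000070951) had a ratio of 1.40 and TRINITY_DN22384_c0_g1 (ENSDARP00000066908) of 1.58.

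Of the 150 members listed in brain and gills, 56 had all 6 brain libraries above all 6 gill libraries, 50 had the reverse and 44 overlapped, and the median ratio of brain to gill means was 1.03. Between brain and liver, 49 of 105 members had every brain library higher, 4 had every liver library higher and 52 overlapped, with a median ratio of 2.23. Between gills and liver the counts were 69, 3 and 40 of 112, with a median ratio of 3.79. The most frequent order among the 99 members in all 3 tables was gills above brain above liver, in 47, followed by brain above gills above liver in 30. Liver came first in 6 of the 99. These counts and ratios use total-count CPM, and liver CPM fall where the dominant liver hit is high. How far that hit sets the comparisons with liver was not tested.

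**Figure D2:**
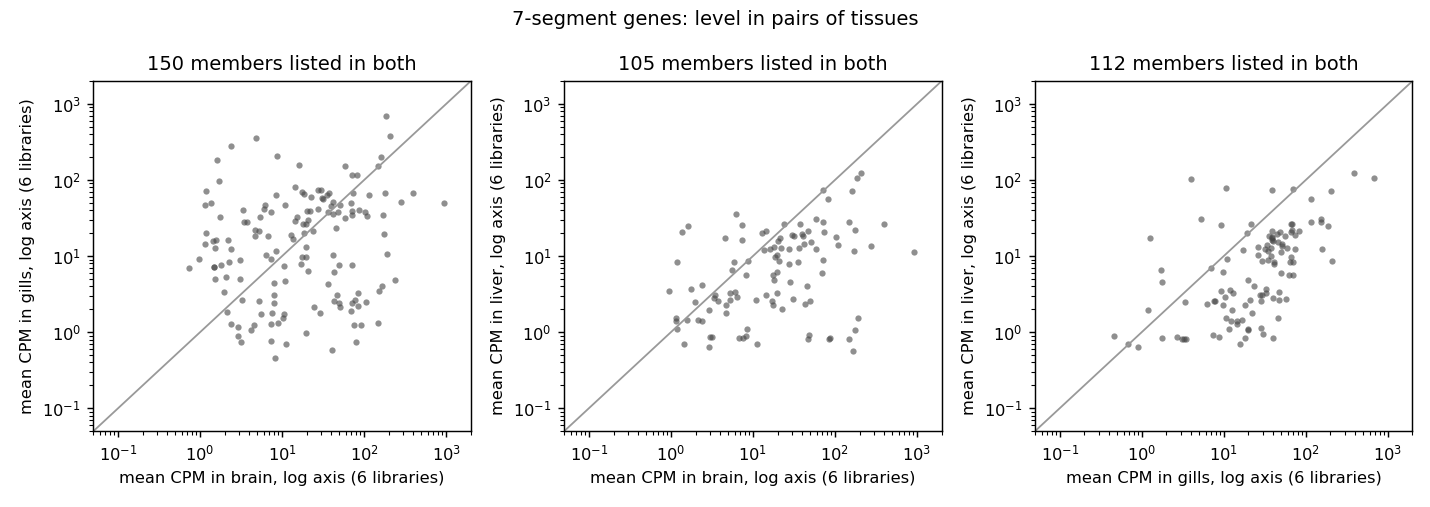
Mean CPM over 6 libraries of each member in one tissue against another (log axes), for the 150 members listed in brain and gills, the 105 in brain and liver and the 112 in gills and liver. Points scatter on both sides of the diagonal for brain and gills (median ratio 1.03) and lie mostly on the gill side against liver (median ratio 3.79).

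Together the members held 0.822% to 0.880% of the brain counts, 0.639% to 0.782% of the gill counts and 0.107% to 0.249% of the liver counts. In brain their summed level was 8795, 8442 and 8728 CPM in the salt libraries and 8237, 8219 and 8341 CPM in the reference libraries. The salt brains lay above the reference brains on total counts, with means of 8655 ± 188 CPM for salt and 8266 ± 65.6 CPM for reference (SD, n = 3 each). With library sizes scaled by TMM, which corrects for a few features taking a large share, the means were 8640 ± 58.5 and 8322 ± 463 in the same order, and the groups overlapped.

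In gills the summed level was 7819 and 7422 CPM in salt 1 and 2 and 6626 CPM in the library labelled salt 3, against 6587, 6393 and 6507 CPM in the reference libraries. The salt gills averaged 7289 ± 607 CPM and the reference gills 6495 ± 97.6 CPM, and on TMM-scaled sizes the groups overlapped (7155 ± 783 in salt and 6664 ± 335 in reference gills). Without the library labelled salt 3, the salt gills averaged 7621 CPM on total counts and 7528 on TMM-scaled sizes. The scaled groups were then apart, at 7971 and 7086 in salt 1 and 2 against 6747, 6949 and 6295 in the reference gills. Liver sums were 1309, 1071 and 1333 CPM in the salt libraries, against 1529, 2330 and 2488 CPM in the reference libraries. The order of the liver means depended on the denominator. On total counts salt livers averaged 1238 ± 145 CPM and reference livers 2116 ± 514 CPM, and the groups were apart. On TMM-scaled sizes the means were 1667 ± 86.5 and 1539 ± 149 in the same order, and the groups overlapped. With the dominant liver hit left out of the total the means were 2026 ± 178 CPM in salt and 2323 ± 169 CPM in reference livers, again with overlap.

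For the comparison of stations the values are TMM-scaled CPM, and each tissue was fitted alone with edgeR's quasi-likelihood test and Benjamini-Hochberg adjustment over all of its genes. Testing covered 214 members in brain, 184 in gills and 114 in liver, since 2 gill and 4 liver members failed the filter on low counts. No member passed an adjusted p of 0.05 in any tissue (0 of 214, 0 of 184 and 0 of 114), nor did any gene at all (0% of 26930, 22958 and 14343 genes). With DESeq2, 5 brain members were called (3 higher and 2 lower in salt), 0 gill members and 1 liver member, against 1.48%, 0.0215% and 1.8% of all genes. At an unadjusted p under 0.05 edgeR gave 17 brain members, 0 gill members and 11 liver members, which is 7.94%, 0% and 9.65% of those tested, against 6.41%, 1.05% and 6.39% of all genes.

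The salt and reference libraries did not overlap for 12 brain members higher in salt and 10 lower, against 5.75% and 7.75% of all genes, so the members' shares of 5.61% and 4.67% did not exceed the background. In gills 8 members (4.35%) were without overlap and higher in salt and 0 were lower, against 2.95% and 3.27% of all genes. Without the library labelled salt 3, 23 gill members (12.5%) were higher and 4 (2.17%) lower without overlap, against 9.56% and 8.59% of all genes, and 7 had an unadjusted p under 0.05, against 3.22%. In liver 13 (11.4%) were higher and 6 (5.26%) lower, against 7% and 6.92% of all genes. The log2 fold change of salt over reference was above 0 for 129 of 214 brain members (60.3%, against 50.2% of all genes), 117 of 184 gill members (63.6%, against 52.4%; 122 of 186 without the library labelled salt 3, against 52.8%) and 54 of 114 liver members (47.4%, against 43.9%). Leaving out 1 library moved these counts. In brain 113 of 214 were above 0 without reference 3 (against 50.5% of all genes) and 133 of 214 without reference 2 (against 50%). In gills 99 of 185 were above 0 without salt 1 (against 51.5%) and 123 of 186 without reference 1 (against 53.4%). Liver gave 50 of 118 without salt 2 (against 43.9%) and 59 of 117 without salt 1 (against 43.1%). With all libraries, median log2 fold changes of the members were 0.09, 0.10 and -0.03 in brain, gills and liver, against 0.00, 0.03 and -0.09 over all genes tested. In liver the split depended on scaling, since 10 of 114 members were above 0 without scaling factors, where the median of all genes moved to -0.98.

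**Figure D3:**
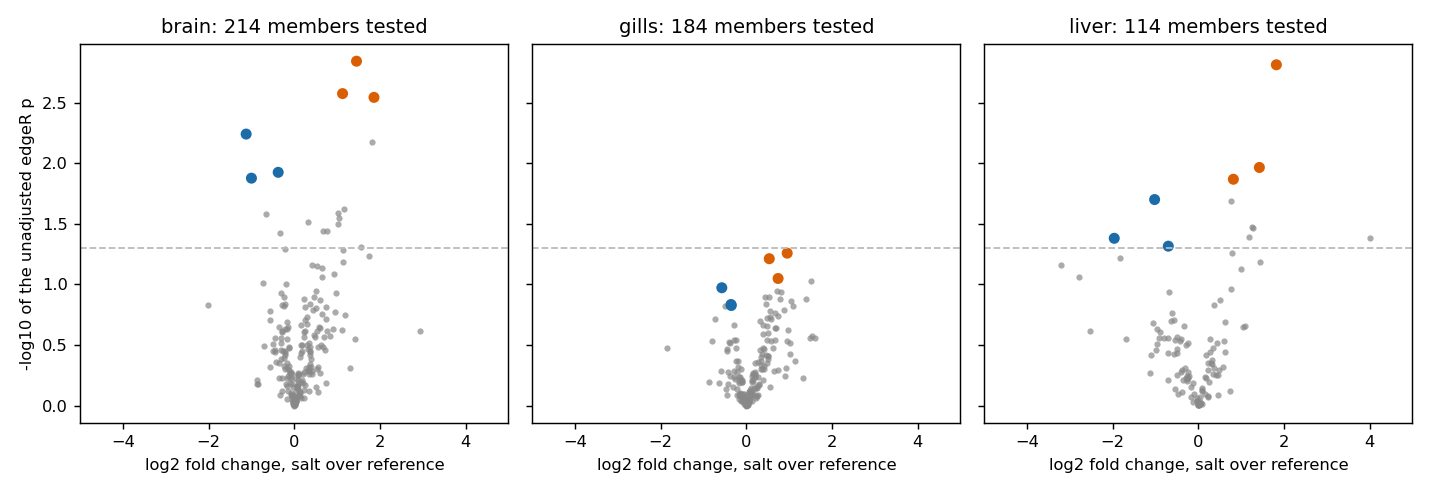
Log2 fold change of salt over reference against -log10 of the unadjusted edgeR p for each tested member, in brain (214), gills (184) and liver (114); orange and blue mark the 3 named members in each direction, and the dashed line an unadjusted p of 0.05. No point passes an adjusted p of 0.05, and 17 brain, 0 gill and 11 liver members have an unadjusted p under 0.05.

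Members with the smallest p in each direction, among those averaging at least 5 CPM in the tissue, are given as descriptions. In brain, TRINITY_DN10130_c2_g1 (ENSDARP00000061498) had 16.3, 30.2 and 24.2 scaled CPM in the salt libraries and 9.38, 9.15 and 7.32 in the reference libraries. The groups did not overlap, and the log2 fold change of 1.45 (SE 0.27) had an adjusted p of 0.493 in edgeR and 0.000574 in DESeq2. Its liver libraries were also apart, at 20.4, 29.3 and 16.4 scaled CPM in salt and 4.45, 7.76 and 6.50 in reference. There a log2 fold change of 1.82 (SE 0.34) had an adjusted p of 0.707 in edgeR and 0.000765 in DESeq2, and it was 0.87 without scaling factors.

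TRINITY_DN11765_c0_g1, one of the leading gill members, had 7.85, 15.8 and 17.1 scaled CPM in the salt brains and 4.98, 2.67 and 3.56 in the reference brains. Every salt brain was above every reference brain, with a log2 fold change of 1.86 (SE 0.39) and an adjusted p of 0.537 in edgeR and 0.00503 in DESeq2. Salt livers had 12.6, 20.4 and 9.26 scaled CPM and reference livers 4.52, 7.10 and 4.11, again without overlap. The liver log2 fold change came to 1.42 (SE 0.40), with an adjusted p of 0.736 in edgeR and 0.0679 in DESeq2, and 0.51 without scaling factors.

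Both members were far higher in gills than in the other tissues, and there their stations overlapped over the 6 libraries. Without the library labelled salt 3, salt 1 and 2 lay above every reference gill for both members. For TRINITY_DN11765_c0_g1 the margin was narrow (289 against 280). In that setting 9.56% of all gill genes were higher in salt without overlap. TRINITY_DN10130_c2_g1 had 218 and 291 scaled CPM in salt gills 1 and 2 and 68.0 in the library labelled salt 3, against 63.0, 173 and 125 in the reference gills. Its log2 fold change was 0.68 over the 6 libraries, 1.08 when the library labelled salt 3 was left out and 0.77 without that library and reference 1. It came to 0.26 without salt 2 and 0.38 without reference 1. TRINITY_DN11765_c0_g1 had 467 and 289 in salt gills 1 and 2 and 63.1 in the library labelled salt 3, against 62.6, 83.2 and 280 in the reference gills, with log2 fold changes of 0.95, 1.41 and 1.06 in the same order of settings. For this member single libraries also mattered, with 0.29 without salt 1, 0.58 without reference 1 and 1.91 without reference 3. None of these gill values had an adjusted p under 0.05 in edgeR.

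**Figure D4:**
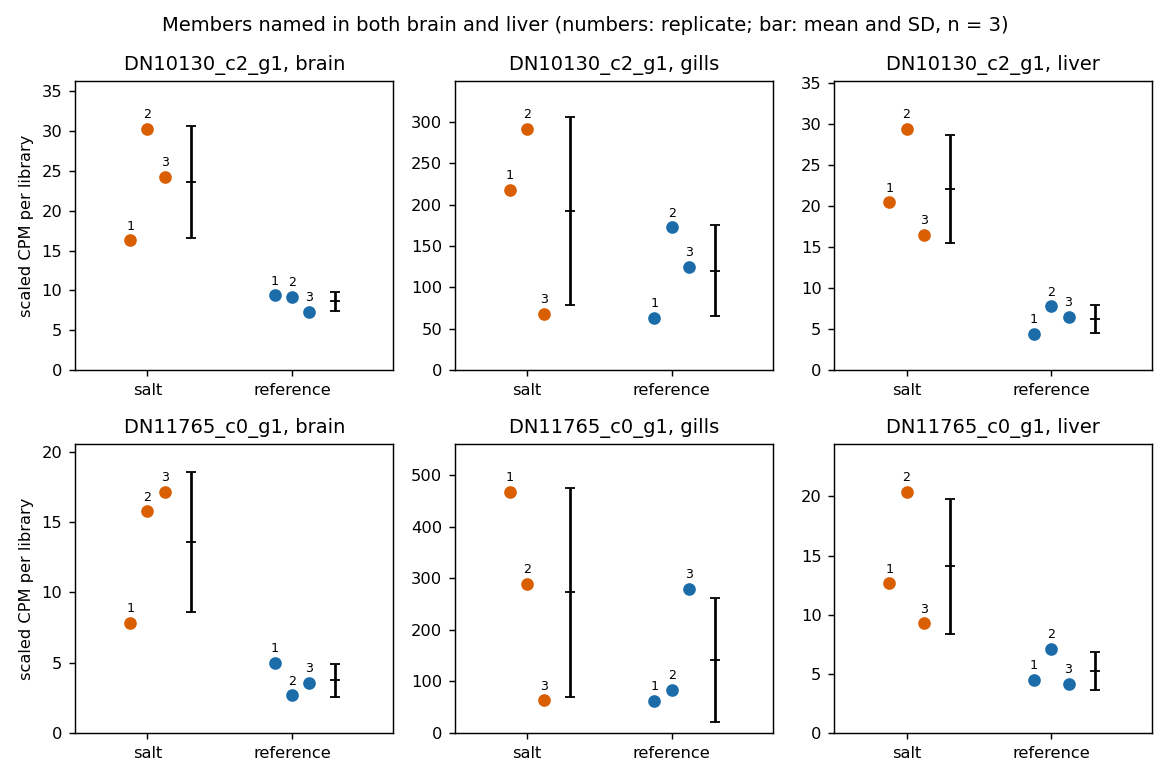
TMM-scaled CPM of TRINITY_DN10130_c2_g1 and TRINITY_DN11765_c0_g1 in each library (linear axis from 0), by tissue, with salt left of reference and bars for the mean and SD (n = 3). Salt and reference points are apart in brain and in liver for both members and overlap in gills, where the library labelled salt 3 had 68.0 and 63.1. Without that library the gill points of both members are apart too, narrowly for TRINITY_DN11765_c0_g1.

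Among the other brain members higher in salt, TRINITY_DN6356_c2_g1 (ENSDARP00000050113) had 11.1, 8.81 and 10.5 scaled CPM in the salt libraries and 4.55, 5.64 and 3.76 in the reference libraries. Its log2 fold change came to 1.13 (SE 0.23), with an adjusted p of 0.535 in edgeR and 0.00353 in DESeq2. The gill libraries of this member did not overlap either, on 149 counts in total. They had 1.47 and 1.81 in salt 1 and 2 and 1.62 in the library labelled salt 3, against 0.832, 0.930 and 0.881 in reference. Of all gill genes, 2.95% were higher in salt without overlap.

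On the lower side in brain, TRINITY_DN1949_c1_g3 (ENSDARP00000106824) had 11.2, 14.3 and 9.02 scaled CPM in the salt libraries and 17.9, 27.3 and 30.2 in the reference libraries. No salt library reached a reference library, and the log2 fold change of -1.13 (SE 0.27) had an adjusted p of 0.617 in edgeR and 0.0231 in DESeq2. TRINITY_DN7050_c0_g1 (NP_001121524.1, a clawed frog protein) had 85.0, 71.9 and 85.0 in the salt brains and 102, 109 and 104 in the reference brains. These groups were apart by a small margin, with a log2 fold change of -0.38 (SE 0.11) and an adjusted p of 0.706 in edgeR and 0.0497 in DESeq2. Over its 7-segment transcripts alone, 14.4% of its brain counts, the log2 fold change was -0.74. TRINITY_DN66150_c0_g1 (ENSDARP00000006774) had 7.99, 9.41 and 8.37 in the salt brains and 19.1, 10.7 and 21.9 in the reference brains, a log2 fold change of -1.0 that neither tool called (adjusted p of 0.722 in edgeR and 0.144 in DESeq2).

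Outside DESeq2, no alternative gave any of these 5 brain calls or the liver call an adjusted p under 0.05, and the largest was 1.00 in brain and 0.970 in liver.

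In gills no member had an unadjusted p under 0.05. TRINITY_DN12154_c0_g1 (ENSDARP00000113473) had 51.0 and 66.2 scaled CPM in salt 1 and 2 and 42.3 in the library labelled salt 3, against 38.2, 39.0 and 32.9 in the reference gills. These did not overlap, with a log2 fold change of 0.53 (SE 0.24) and an adjusted p of 1 in edgeR. In brain the same member had 43.8, 43.9 and 45.0 in salt and 38.4, 34.8 and 33.6 in reference, again apart, with a log2 fold change of 0.31. TRINITY_DN16790_c0_g1 (ENSDARP00000094932) was apart too, at 6.66 ± 0.866 in salt and 3.98 ± 0.207 in reference gills (SD, n = 3 each), whereas TRINITY_DN696_c0_g1 (ENSDARP00000109092) averaged 93.3 ± 24.5 in salt and 48.2 ± 22.0 in reference gills with overlap. Without the library labelled salt 3 the log2 fold changes were 0.68 for TRINITY_DN12154_c0_g1, 0.83 (with it 0.74) for TRINITY_DN16790_c0_g1 and 1.14 (with it 0.95) for TRINITY_DN696_c0_g1. Those of TRINITY_DN12154_c0_g1 without salt 2 and of TRINITY_DN696_c0_g1 without reference 3 were 0.35 and 0.64, and that of TRINITY_DN696_c0_g1 without both the library labelled salt 3 and reference 1 was 1.47.

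The gill members with the smallest p on the lower side all overlapped between stations. TRINITY_DN8871_c2_g2, the leading brain member, averaged 40.1 ± 3.44 scaled CPM in salt and 59.7 ± 22.5 in reference gills (SD, n = 3 each). Its log2 fold change of -0.57 was -0.59 without the library labelled salt 3 and -0.25 without reference 3. For TRINITY_DN12974_c0_g1 (ENSDARP00000038241) and TRINITY_DN43809_c1_g2 (XP_031762205.1) the log2 fold changes were -0.36 and -0.35, and -0.35 and -0.41 without the library labelled salt 3. That of TRINITY_DN43809_c1_g2 was -0.19 without reference 3 and -0.53 without both the library labelled salt 3 and reference 1. The value of TRINITY_DN12974_c0_g1 turned to 0.56 when only its 7-segment transcripts, 5.02% of its gill counts, were summed.

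In liver, TRINITY_DN4137_c0_g1 (ENSDARP00000087165) had 28.3, 18.9 and 20.8 scaled CPM in the salt libraries and 12.5, 13.2 and 12.9 in the reference libraries. The groups were apart, with a log2 fold change of 0.82 (SE 0.24) and an adjusted p of 0.736 in edgeR, but without scaling factors it was -0.07. TRINITY_DN1434_c0_g1 had 5.35, 7.77 and 6.70 in the salt livers and 11.1, 10.4 and 18.7 in the reference livers, a log2 fold change of -1.02 (SE 0.33) with an adjusted p of 0.754 in edgeR. It was -2.0 without scaling factors, and no salt liver reached a reference liver on the TMM scale. In brain this member had a log2 fold change of 0.30, and the liver minus brain difference of -1.33 (SE 0.36) had an adjusted p of 0.295 in edgeR.

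TRINITY_DN12190_c0_g1 (ENSDARP00000092070) had 2.34, 3.85 and 2.65 scaled CPM in the salt livers and 7.91, 2.77 and 23.7 in the reference livers. The groups overlapped, and the log2 fold change of -1.97 became -0.86 without reference 3 and -3.05 without scaling factors. TRINITY_DN2212_c3_g1 (ENSDARP00000068305) averaged 4.28 ± 0.498 in salt and 6.97 ± 1.39 in reference livers (SD, n = 3 each), apart, with a log2 fold change of -0.70 that was -1.56 without scaling factors.

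Differences of the station effect between tissues were tested with edgeR contrasts over the 18 libraries and the 11818 genes in all 3 tables, which were counted separately, and 99 members entered. None (0 of 99) had an adjusted p under 0.05 for gills minus brain, liver minus brain or liver minus gills, against 0%, 0.0846% and 0.118% of all genes. Unadjusted p-values under 0.05 numbered 0, 10 and 10, against 1.96%, 7.98% and 9.76% of all genes. A limma fit with the library code as a block also called 0 members in each contrast. Over all 11818 genes, 10 were called for liver minus brain and 14 for liver minus gills with all libraries. These numbers were 144 and 208 without liver reference 1, and 24 and 30 without liver reference 2. Among the 99 members, TRINITY_DN9693_c1_g1 (ENSDARP00000085983) and TRINITY_DN5478_c0_g2 (ENSDARP00000072796) were called in both liver contrasts without liver reference 1. Without liver reference 2, TRINITY_DN8698_c0_g1 (ENSDARP00000009527) was called in both. All 3 were near or at 0 in the salt livers; TRINITY_DN5478_c0_g2 had 0, 0 and 0 CPM there, against 0, 2.48 and 2.35 CPM in the reference livers.

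On total-count CPM over both stations, the spread between libraries was narrowest in brain and widest in liver. Liver CPM also fall where the dominant liver hit is high, and the part of that hit in the liver spread was not tested. Over the 6 libraries of a tissue the median coefficient of variation of members averaging at least 5 CPM was 23.1% in brain (152 members), 28.7% in gills (134) and 49.7% in liver (63). The steadiest was TRINITY_DN4477_c0_g1 (ENSDARP00000088809) in brain, at 113, 106 and 112 CPM in the salt libraries and 113, 106 and 107 CPM in the reference libraries, a coefficient of 3.13%. In liver the steadiest was TRINITY_DN5719_c1_g1, with a pufferfish hit, at 17.4%. Another measure of spread, within stations, on TMM-scaled sizes and over all tested members, was closer in gills and liver. This median tagwise biological coefficient of variation in edgeR was 0.360, 0.472 and 0.491 for the members in brain, gills and liver. For all genes it was 0.383, 0.583 and 0.518. Measure, scaling and set of members all changed, so the closer values cannot be assigned to any of them. The gill values include the library labelled salt 3.

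Other members varied widely between libraries of the same station. TRINITY_DN224_c1_g1 (ENSDARP00000001943) had 16.1, 17.9 and 0.0816 scaled CPM in the salt brains and 0.577, 57.4 and 3.27 in the reference brains, and its highest library was at least 469-fold higher than its lowest, with the lowest set to a floor of 3 counts. TRINITY_DN9748_c0_g1 (ENSDARP00000110717) had 5.95, 12 and 13.3 in the salt brains and 21.0, 0 and 0.164 in the reference brains. TRINITY_DN9471_c0_g2 (ENSDARP00000110826) had 5.44, 5.84 and 1.17 in the salt livers and 7.94, 64.0 and 0 in the reference livers, at least 1156-fold on the same floor. In gills TRINITY_DN507_c1_g1 (ENSDARP00000120035) had 93.1 in salt 2 and 2.56 to 16.3 in the other 5 libraries.

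TRINITY_DN1449_c2_g1 (ENSDARP00000085160) had 112, 16.6 and 94.5 scaled CPM in the salt livers and 13.1, 0.421 and 0.535 in the reference livers. Stations were apart, with a log2 fold change of 4.0 (SE 1.56) and an adjusted p of 0.754 in edgeR. Its 2 lowest libraries were the 2 in which the dominant liver hit was near 0, and the part of that hit in the difference was not tested. In gills this member had 3.55 and 7.13 in salt 1 and 2 and 6.61 in the library labelled salt 3, against 5.51, 8.73 and 0.200 in the reference libraries.

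In brain, single transcripts were called in more members than gene sums were, but only with DESeq2. The edgeR fit on transcript counts called 0 members in each tissue. It called 0 of 57387 brain, 0 of 48486 gill and 0 of 28679 liver transcripts. With DESeq2 on transcript counts, 24 of 599 member transcripts in brain were called (4.01%, against 2.46% of all brain transcripts), 2 of 506 in gills (0.395%, against 0.496%) and 4 in liver (1.63% of those fitted, against 2.48%). The shares of all transcripts count only those with an adjusted p, whereas the member shares count every member transcript, so they are not fully alike. The called brain transcripts, 14 higher and 10 lower in salt, belonged to 22 members. Of them 6 were at 0 in every salt library and 5 at 0 in every reference library. In members with several transcripts, 20 were called with a median absolute log2 fold change of 8.11, and they belonged to 18 members. The gene sums of these 18 had a median absolute log2 fold change of 0.34, and 12 of them lay within 0.5 of 0. A transcript at 0 in every library of a station has no finite ratio. The 8.11 therefore depends on such zeros and is not a measured size like the 0.34.

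A few examples, chosen after their values were seen, show the pattern. Transcript i2 of TRINITY_DN13319_c0_g2 (ENSDARP00000119614) had 0, 0 and 0 counts in the salt brains and 918, 461 and 1393 in the reference brains. Transcript i4 of the same gene had 1976, 1541 and 1338 counts in the salt brains and 1147, 773 and 825 in the reference brains. Summed, the gene had 67.3, 69.3 and 56.3 scaled CPM in the salt brains and 74.7, 55.0 and 93.3 in the reference brains, which overlap.

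Transcript i15 of TRINITY_DN2336_c2_g1 (ENSDARP00000124758) had 0, 0 and 0 counts in the salt brains and 1522, 979 and 1962 in the reference brains, while the gene sums were 74.6, 112 and 114 scaled CPM in salt and 86.2, 88.0 and 165 in reference. Transcript i2 of TRINITY_DN20228_c0_g1 (ENSDARP00000028496) had 0, 0 and 0 counts in the salt brains and 2053, 1152 and 901 in the reference brains, while its gene sums were 147, 186 and 199 scaled CPM in salt and 213, 192 and 197 in reference. Each of these transcripts had no count in any salt brain, while the gene sums overlapped between stations. Other transcripts of the same genes were at 0 in some libraries of a station and not in others. Transcript i9 of TRINITY_DN2336_c2_g1 had 0, 2578 and 871 counts in the salt brains and 856, 0 and 0 in the reference brains. Transcript i17 of TRINITY_DN20228_c0_g1 had 0, 0 and 477 counts in the reference brains. The share of all brain transcripts at 0 in a whole station is not given here. Whether such transcripts are splice forms, alleles or products of the assembly was not tested.

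**Figure D5:**
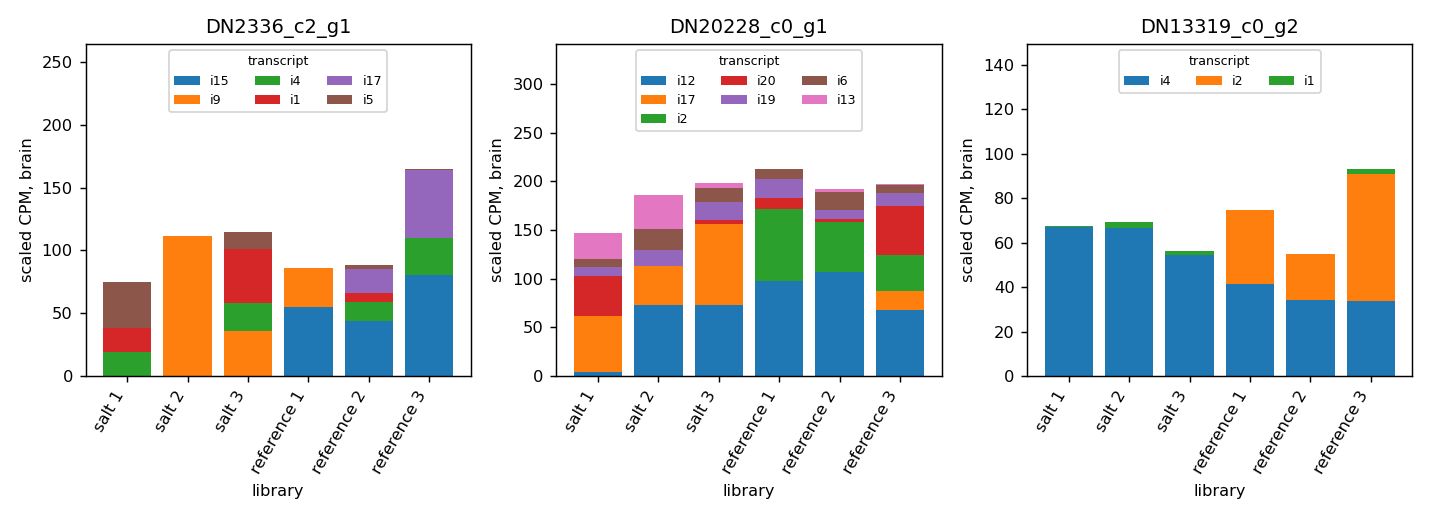
Stacked bars of brain TMM-scaled CPM, 1 colour per transcript and the gene sum as the full height, for TRINITY_DN2336_c2_g1, TRINITY_DN20228_c0_g1 and TRINITY_DN13319_c0_g2, with salt libraries left of reference libraries. Transcripts i15, i2 and i2 of these genes are at 0 in all 3 salt libraries, while the gene sums overlap between stations. Other transcripts, such as i9 of TRINITY_DN2336_c2_g1, are at 0 in some libraries of both stations.

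At the bottom of the set, the members just inside the limit of 250 had a highest tissue mean of 2.20, 2.14, 2.14, 2.12 and 2.09 CPM, and the genes just outside it 2.04, 1.99, 1.92, 1.90 and 1.90 CPM. The highest tissue mean had a median of 21.0 CPM over the members, with 174 at 10 CPM or more and 32 at 100 CPM or more. A few members held much of the total: 18 in brain, 18 in gills and 13 in liver carried 50% of the member counts.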

How the data were processed

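Column-purified RNA was made into TruSeq libraries, per the protocols in the labels. The authors deposited raw whole-number counts per assembled transcript, 1 table per tissue; the submitters' processing notes name Trimmomatic and DESeq2, with no version, and for the aligner, counting tool and strand setting nothing is stated in the sources used. Counts were summed per assembled gene. The members and lists were chosen with earlier results of these data known. Fits were made per tissue in edgeR 4.0.16, R 4.3.3 (filterByExpr, TMM, quasi-likelihood F test, two-sided, Benjamini-Hochberg over all genes, threshold 0.05), with DESeq2 1.42.0 and limma 3.58.1 as alternatives. The standard error is the log2 fold change divided by the square root of F. The fit was tested on simulated data. Members were named per tissue by fixed rules. For level these are the 5 with the highest mean among members whose highest tissue mean lies in that tissue. From a mean of 5 CPM, the 3 with the smallest p in each direction and the 2 with the widest spread were also named. The 3 most even members were added to these. The steadiest members, the threshold values and the transcript examples were added after the values were seen. No 2 libraries held identical values (0 of 18 replicate pairs), and the median chi-square per gene between replicates was 5.32 to 40.0, above counting noise. Nothing says the fish were independent beyond the titles, so p-values measure the spread between these libraries. Floors cover counting error only. No per-sample column was left out (0).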

Additional observations from a re-analysis of the deposited data

Results flagged for a closer look

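TRINITY_DN67903_c0_g2 (ENSDARP00000022783) drew attention because its stations did not overlap in opposite directions in 2 tissues. It had 1.18 and 1.18 scaled CPM in salt gills 1 and 2 and 0.672 in the library labelled salt 3, against 0.256, 0.358 and 0.441 in the reference gills, a log2 fold change of 1.50. In liver it had 0.0961, 0.465 and 0.225 in the salt libraries and 1.16, 0.732 and 0.830 in the reference libraries, a log2 fold change of -1.82. The difference of these effects, liver minus gills, was -3.34 (SE 0.84), with an adjusted p of 0.190 in edgeR. The gene has 83 counts in all gill libraries together and 126 in all liver libraries, was singled out after its values were seen, and the gill direction rests on labels that the library labelled salt 3 goes against.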

How the results depend on the processing

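Edge cases came from the tool and from single libraries. DESeq2 called 5 brain members and 1 liver member, against 0 and 0 in edgeR; leaving out each library in turn gave 0 called in every tissue. Unadjusted p-values under 0.05 then numbered 8 (without salt 3) to 39 (without reference 2) of 214 brain members. Over all brain genes they were 1277 of 27375 and 2701 of 27418 in those settings. Gills gave 0 of 184 members (without salt 2) to 7 of 186 (without the library labelled salt 3), against 78 of 24146 and 774 of 24064 genes. Liver gave 4 of 117 members (without salt 1) to 13 of 117 (without reference 1), against 760 of 14801 and 1532 of 14750 genes. Without scaling factors liver gave 34 of 114 members, against 4150 of 14343 genes. Liver minus brain and liver minus gills gave 0 to 2 member calls. Summing 7-segment transcripts only, a choice made after seeing the data, called 0 members. Of 208, 175 and 104 members tested, 19, 1 and 10 had an unadjusted p under 0.05. Over all genes these were 1739 of 26924, 242 of 22949 and 916 of 14333. On TMM-scaled sizes the summed levels were 6664 in reference gills, 1667 in salt livers and 1539 in reference livers, and without the dominant hit 2026 in salt livers. Reversals were -0.074 for TRINITY_DN4137_c0_g1 in liver without scaling factors and 0.56 for TRINITY_DN12974_c0_g1 in gills over 7-segment transcripts; the cause was not tested. Replicate numbers did not pair the libraries (correlations of deviations -0.357 to 0.159), and with a replicate block 0 members were called. With the block 14, 2 and 11 members had an unadjusted p under 0.05, against 17, 0 and 11 without it. Over all genes the block gave 1404 of 26930, 276 of 22958 and 726 of 14343. Membership kept 247 of 250 on medians and 250 on TMM-scaled sizes. At 3 libraries a group and these depths, a p above the threshold does not show that stations did not differ.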
